A study of Nothobranchius furzeri with 8 samples.

Results

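A set of 100 genes was examined whose RNA level varied widely among the brains of 4 wild turquoise killifish (*Nothobranchius furzeri*) and little among those of 4 captive ones. They were chosen from 26739 genes of the deposited RPM table, which holds the reads of each gene scaled to the library's total. A gene was eligible when its mean over the 8 fish was at least 10 RPM and its SD/mean, the standard deviation divided by the mean, was at most 0.1 among the captive fish. Of the 8000 eligible genes, the 100 with the highest SD/mean among the wild fish were taken, after leaving out FOS, EGR1 and JUNB by name. EGR4 and VIM were left out as well but did not meet the captive threshold. Since the same values chose the genes, their spread is given as a description and not tested. All fish were males, and RNA of whole brains was sequenced from poly(A) libraries. The wild fish (strain label MZM_A41, fish 3, 5, 7 and 11) were 39 days old and were netted in a natural pond. The captive fish (strain label MZM-0410, fish MZM_0410_124 to MZM_0410_127) were 35 days old and lived singly in tanks under a fixed light cycle. Wild brains were stored in RNAlater and captive brains were frozen on dry ice. From variants in RNA reads, the study reported less genetic diversity and closer average kinship in its captive than in its wild samples. Origin, age, strain, relatedness and storage therefore cannot be told apart between the groups. Each group is 4 fish of 1 population or strain, and every value per fish rests on 1 library.

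A whole brain holds neurons, glia, vessels and meninges together. RNA levels in such tissue can vary between animals through recent activity, time of day and the share of each cell type. Fish brains also keep radial glia and dividing progenitors in the adult, and teleosts often carry a pair of copies of genes that mammals hold once. The copies can differ in level and regulation.

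Total counts were 13923243 to 14541119 per wild library and 11814586 to 14393377 per captive library. No libraries were identical, and replicates differed by a chi-square of 7.77 to 17.1 per gene, which is more than counting error. Defining markers of neurons were present in all brains, with summed levels of 5965 to 6491 RPM in wild fish and 6300 to 6973 RPM in captive fish. Some marker sums differed between single fish. Markers of fibroblasts, meninges and pericytes summed to 675, 243, 213 and 1291 RPM in wild fish and 330.1, 504, 707 and 414 RPM in captive fish, and pituitary and hypothalamic hormones to 3572, 2288, 416 and 446 RPM in wild fish and 1179.6, 356, 386 and 1100.4 RPM in captive fish. The hormone sum was mostly growth hormone, GH1, with 3222, 1832, 0.688 and 0.417 RPM in wild fish 3, 5, 7 and 11 and 837, 1.12, 0.723 and 722 RPM in captive fish. GH1 varied in both groups and so lay outside the captive threshold. The fibroblast sum varied mainly through both COL1A2 genes. In wild fish 3, 5, 7 and 11 these had 213, 35.9, 24.1 and 476 RPM, and 282, 41.3, 49.0 and 662 RPM. Oligodendrocyte markers summed to 7749, 6600.0, 7588 and 4895 RPM in wild fish and 11203, 7847, 8529.8 and 7336 RPM in captive fish. The part of these differences in the spread of the 100 genes was not tested.

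Levels of the 100 genes were modest. Their mean over all fish had a median of 24.3 RPM, against 48.8 RPM for the 7897 other eligible genes. SD/mean among wild fish was 0.289 to 0.850 with a median of 0.351, against a median of 0.0708 for the other eligible genes. Among captive fish the medians were 0.0719 for the 100 genes and 0.0570 for the others. The highest wild fish exceeded the lowest by a median of 2.21-fold in the 100 genes and 1.17-fold in the others, and the ratio reached 2 in 75 of the 100 and in 10 of the 7897. Counting error was a small part of this spread. The median mean count was 331 reads per wild fish, for which counting alone gives a median SD/mean of 0.0549 and at most 0.167. A human gene name was known for 41 of the 100 (41%), against 57.3% of the other eligible genes. The names came from the study's supplementary tables, and 12 of the 41 were found only in a table whose genes were picked partly on these libraries.

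**Figure D1:**
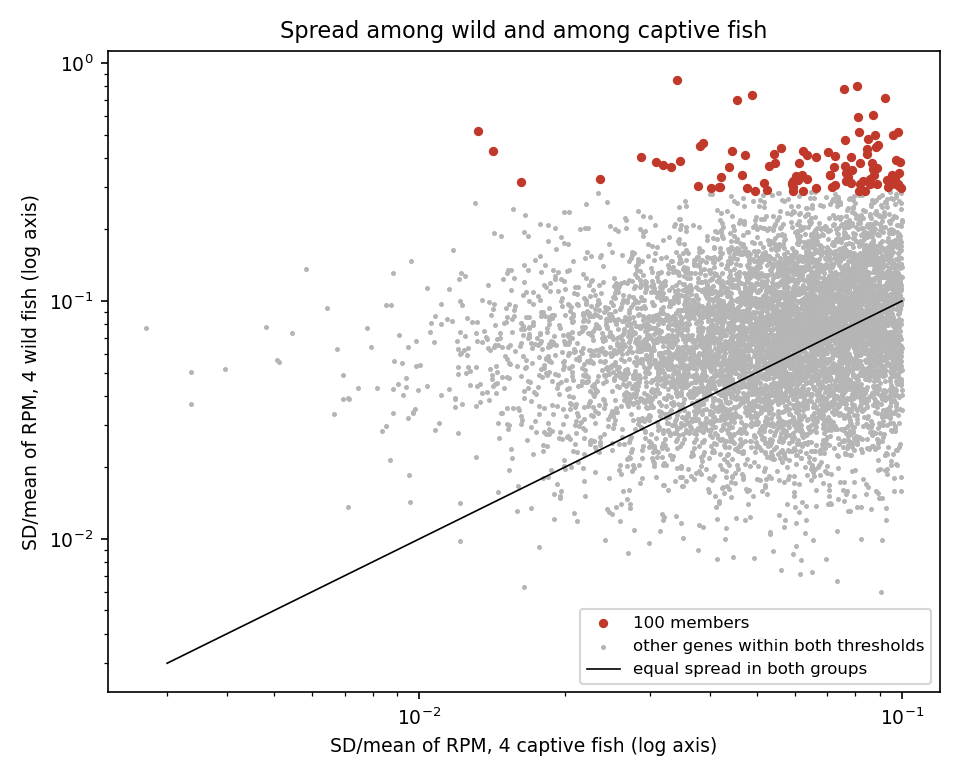
SD/mean of RPM among the 4 captive fish (horizontal, log axis) and among the 4 wild fish (vertical, log axis) for the 100 genes (red) and 7897 other eligible genes (grey). The red points lie above 0.289 on the wild axis and to the left of 0.1 on the captive axis, as the rule requires, and the line marks equal spread.

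The genes next to the thresholds had similar values. The last gene taken was MNT with a wild SD/mean of 0.2887, and the first ones not taken were Nfu_g_1_020682 with 0.2873 and INSM1 with 0.2873. PADI4 was just inside the captive threshold with 0.0997, and Nfu_g_1_010957 with 0.101 and Nfu_g_1_001437 with 0.102 were just outside it. Nfu_g_1_001437 had 1759, 526.0, 460.5 and 937.5 RPM in wild fish 3, 5, 7 and 11, so a strongly varying gene was left out by a narrow margin. On mean level, TONSL was inside with 10.3 RPM and Nfu_g_1_009535 outside with 9.84 RPM.

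No single wild brain carried the spread. The most distant fish of each gene was taken as the one whose log2(RPM + 0.5) lay farthest from the median of the other 3. It was fish 3 in 29 genes, fish 5 in 27, fish 7 in 17 and fish 11 in 27, against 28.0%, 19.2%, 22.3% and 30.5% of the other eligible genes. In 60 of the 100 genes this fish was the high one, against 48.6% of the others. Ranking by SD/mean of RPM favours genes with 1 high fish over genes with 1 low fish. Nothing is therefore read from the balance of high and low fish. Fish 11 was distant and high in 21 genes and distant and low in 6. Fish 5 was distant and high in 19 and low in 8, fish 3 was high in 12 and low in 17, and fish 7 was high in 8 and low in 9. The widest gap on the log scale left 1 fish above the other 3 in 48 genes, 1 fish below in 26, and 2 fish on each side in 26. Among the last, fish 5 and 7 were the high ones in 8 genes, fish 3 and 11 in 7 and fish 3 and 5 in 5.

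**Figure D2:**
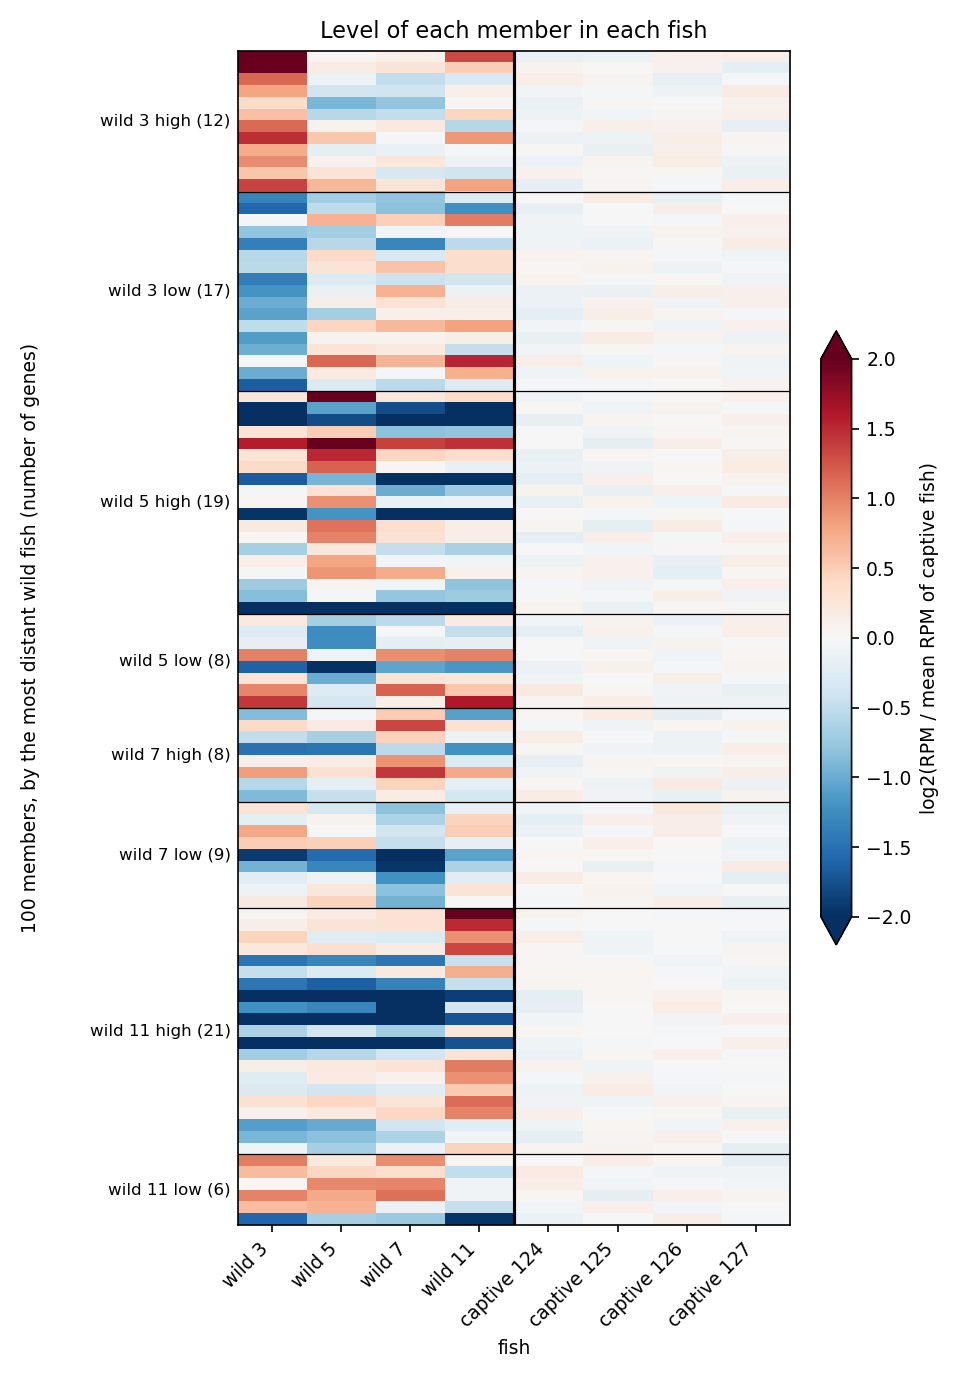
Level of each of the 100 genes (rows) in each fish (columns, wild left of captive) as log2 of RPM over the mean of the captive fish. Rows are grouped by the most distant wild fish and its side, with the number of genes in parentheses. High and low wild values change from row group to row group, from 6 genes with fish 11 low to 21 with fish 11 high, while the captive columns stay near 0.

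A single fish stood apart from 3 close ones in many of the genes. In 25 of them the gap between the extreme fish and the next took more of the wild range than Dixon's 95% critical value for 4 samples, against 5.01% of the other eligible genes, and the lone fish was high in 20 and low in 5. The genes were chosen for spread among these same fish, so the shares are a description and not a test. The other fish then often lay close to each other. Leaving out single fish changed the choice, and 69, 71, 78 and 71 of the 100 genes were chosen again when fish 3, 5, 7 or 11 was left out. The 12 genes chosen again each time were RMDN1, SLC25A14, BTD, POF1B, UVSSA and 7 without a name.

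The captive fish served as a narrow mark against which the wild values can be placed. All 4 captive values lay inside the wild range in 44 genes, against 9.51% of the other eligible genes. They lay above all wild values in 23 genes and below them in 11, against 22.6% and 34.2%, and the ranges overlapped in part in 22. Since a wide wild range holds a narrow captive one more easily, nothing is read from these shares. In the 48 genes with 1 high fish, the captive mean was nearer to the 3 low fish in 31. In the 26 genes with 1 low fish, it was nearer to that fish in 6. Among the other eligible genes the shares were 64.4% with 1 high fish, close to the 64.6% here, and 53.8% with 1 low fish, against 23.1% here. These shares also depend on the wild values that chose the genes, so nothing is read from them.

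**Figure D3:**
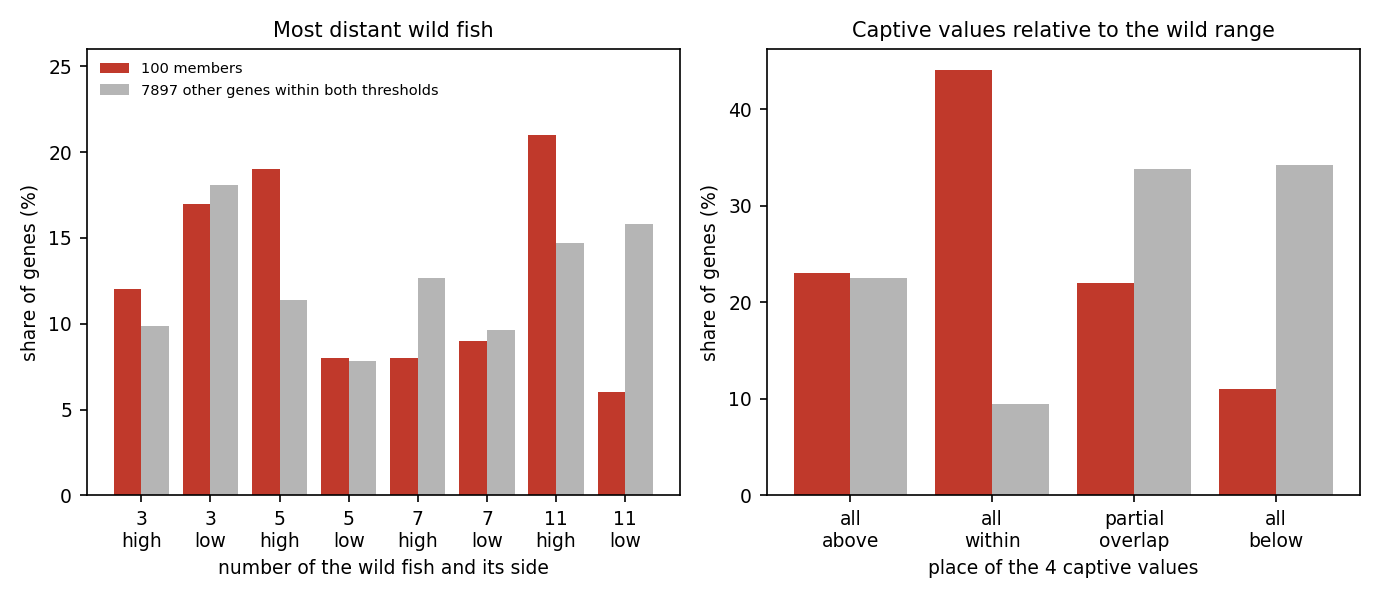
Left, share of genes (vertical, %) by the most distant wild fish and its side. Right, share of genes by the place of the 4 captive values relative to the wild range. Red bars are the 100 genes and grey bars 7897 other eligible genes, and captive values lay within the wild range in 44 of the 100 genes and in 9.51% of the others.

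Whether mean levels differed between wild and captive brains was tested by edgeR (quasi-likelihood F-test) over all genes counted in each of the 8 libraries. Of the 100 genes, 33 passed an adjusted p of 0.05, 10 with a higher and 23 with a lower mean in wild fish. Over all 19517 genes tested, 41.6% passed, 19.8% higher and 21.8% lower in wild fish. The genes were chosen for their spread in the wild libraries of this contrast, so nothing is read from the count of 33. The required mean of at least 10 RPM over the 8 fish is a second limit. A gene with a mean under 10 RPM in 1 group met it only through the other group. This holds for SLC25A14, SLC4A11, ZC3H12C, RIPK2, Nfu_g_1_016549 and Nfu_g_1_018062, which were low in wild fish, and for TONSL, which was low in captive fish. Their differences in mean are a description. At an unadjusted p under 0.05, 45 of the 100 passed, against 50.4% of all genes tested. The count of higher genes was 16 without wild fish 5 and 5 to 6 without any one captive fish. The median log2 fold change was -0.04 for the 100 genes and 0.04 for all genes. Fewer cells of a type and less RNA per cell cannot be told apart in these brains. All fold changes are wild over captive on the log2 scale, given ± SE. This SE was derived as the absolute log2 fold change over the square root of edgeR's F statistic. Values per fish are RPM in the order of fish 3, 5, 7 and 11 (wild) and of ascending label number (captive). The named genes are arranged by what they are known to do in mammals, an arrangement made after their values were seen. Of the 12 genes named only through the table picked partly on these libraries, 11 passed, against 9 of the 29 named through other tables and 13 of the 59 without a name. Nothing is therefore read from the counts by role.

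Of 8 signalling genes, 1 had a higher and 3 a lower mean in wild fish, and 4 did not pass the test. INPP5J, a phosphatase that removes the 5-phosphate of phosphoinositides, had 106, 116, 118 and 271 RPM in wild fish, against 94.8, 97.6, 97.3 and 96.8 RPM in captive fish. Fish 11 was far above the other 3, which sat just above the captive values. Its wild SD/mean was 0.518, and 0.0547 without fish 11. IRS2, the adaptor that passes insulin and IGF signals to phosphoinositide 3-kinase, had 36.1, 81.9, 70.5 and 118 RPM in wild fish, against 67.5, 75.5, 75.0 and 69.1 RPM in captive fish. Fish 3 was low and fish 11 high, with the captive values between them. Without fish 3 its wild SD/mean of 0.44 became 0.274. The phosphodiesterase PDE3B, which breaks down cyclic AMP and is switched on by insulin in fat cells, had 24.7, 43.6, 26.1 and 27.2 RPM in wild fish, against 43.4, 43.8, 48.3 and 42.3 RPM in captive fish. Fish 5 reached the captive level and the other 3 were lower. Leaving out fish 5 took its wild SD/mean to 0.0484, against 0.291 over all 4. The mean of PDE3B was lower in wild fish (log2 fold change -0.58 ± 0.16, edgeR adjusted p = 0.017).

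The ETS transcription factor ETV5, a target of FGF and ERK signals, had 72.6, 164, 118 and 212 RPM in wild fish, against 80.8, 69.6, 74.8 and 70.2 RPM in captive fish. Fish 3 lay at the captive level and the other 3 above it, and the mean was higher in wild fish (log2 fold change 0.91 ± 0.26, edgeR adjusted p = 0.019). The kinase STK35 had 12.9, 12.1, 7.43 and 23.3 RPM in wild fish, against 26.7, 30.1, 33.0 and 29.7 RPM in captive fish. All wild values were below the captive ones, with fish 11 nearest and fish 7 farthest (log2 fold change -1.13 ± 0.27, edgeR adjusted p = 0.0081). The wild SD/mean of STK35 was 0.479 over 4 fish and 0.274 without fish 11. RIPK2, the kinase that relays signals of NOD receptors for bacterial cell wall pieces, had 5.96, 12.5, 10.0 and 7.57 RPM in wild fish, against 15.9, 17.8, 19.5 and 17.9 RPM in captive fish. Fish 3 was lowest and fish 5 highest among values that all lay below the captive ones (log2 fold change -1.01 ± 0.20, edgeR adjusted p = 0.0029). The cytokine MIF, the named gene with the most RNA per length (286 RPKM in wild and 246 RPKM in captive fish on average), had 58.9, 102.9, 127.3 and 109 RPM in wild fish, against 88.2, 90.0, 79.8 and 84.6 RPM in captive fish. Fish 3 was low and the other 3 above the captive values. The SD/mean of 0.291 among the wild fish was 0.113 once fish 3 was left out. The phosphatase PTPDC1 had 8.69, 7.68, 16.8 and 11.2 RPM in wild fish, against 13.5, 12.1, 11.3 and 11.9 RPM in captive fish, with fish 7 high. Its wild SD/mean was 0.369, and 0.2 without fish 7.

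**Figure D4:**
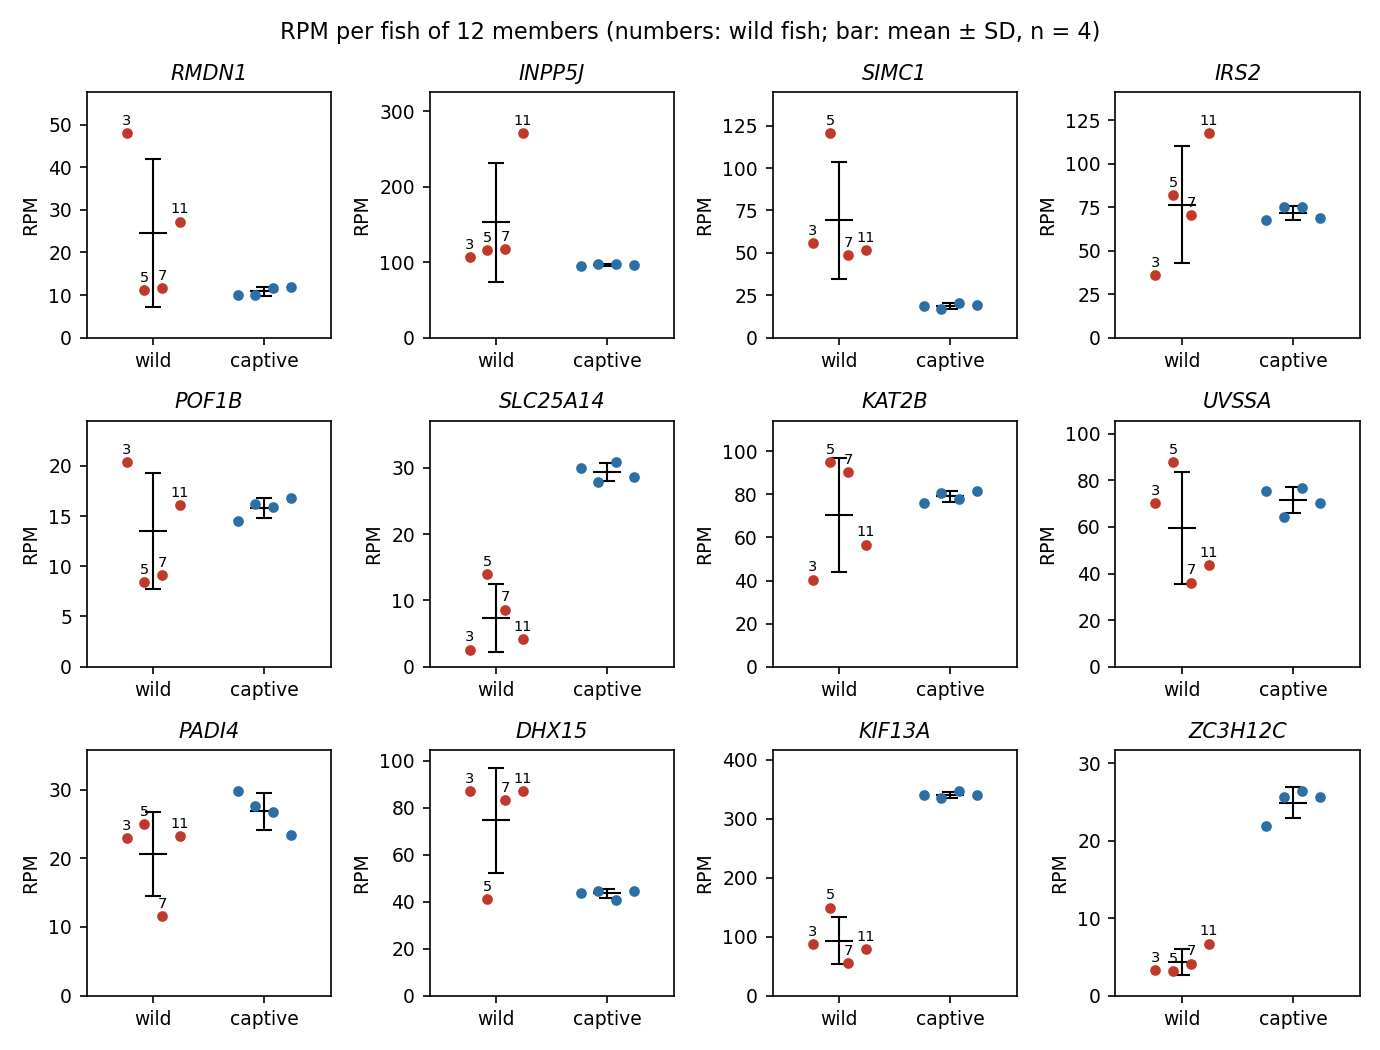
RPM per fish (vertical, each axis from 0) of 12 of the 100 genes in wild (red, left) and captive fish (blue, right). Numbers name the wild fish, and bars are mean ± SD (n = 4 each). A single fish stands apart in INPP5J (271 RPM in fish 11), SIMC1 (121 RPM in fish 5), DHX15 (41.1 RPM in fish 5) and PADI4 (11.6 RPM in fish 7), while 2 fish are high in RMDN1, POF1B, SLC25A14, KAT2B and UVSSA.

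The 11 genes of the cytoskeleton, its motors and membrane shape held 3 with a lower mean in wild fish and 8 that did not pass. RMDN1, a protein of the regulator of microtubule dynamics family, had the highest wild SD/mean of all named genes (0.710). It had 48.0, 11.1, 11.6 and 27.2 RPM in wild fish, against 9.90, 10.1, 11.6 and 11.9 RPM in captive fish. Fish 3 and 11 were high, and fish 5 and 7 lay at the captive level. POF1B, an actin-binding protein of epithelial junctions, had 20.4, 8.40, 9.15 and 16.1 RPM in wild fish, against 14.5, 16.2, 15.9 and 16.8 RPM in captive fish. Fish 3 and 11 were again above fish 5 and 7, but here the high fish lay at or above the captive values and the low ones below them. The kinesin KIF13A, which moves endosomal cargo along microtubules, had 87.3, 149, 55.6 and 79.3 RPM in wild fish, against 341, 335, 347 and 339.9 RPM in captive fish. Every wild value was under the captive ones, with fish 5 highest (log2 fold change -1.91 ± 0.24, edgeR adjusted p = 0.00018). Without fish 5 its wild SD/mean of 0.429 became 0.223. BAIAP2, which bends membranes and binds actin regulators, had 24.1, 27.04, 24.1 and 48.9 RPM in wild fish, against 67.9, 67.4, 63.2 and 68.0 RPM in captive fish. Fish 11 was above the other 3, and all were below the captive fish (log2 fold change -1.13 ± 0.21, edgeR adjusted p = 0.0019). Leaving out fish 11 took its wild SD/mean to 0.0676, against 0.386 over all 4.

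CARMIL2, a regulator of actin capping protein, had 158, 180.4, 248 and 361 RPM in wild fish, against 222, 224, 214 and 209.7 RPM in captive fish. The captive values sat between fish 5 and fish 7. The wild SD/mean of CARMIL2 was 0.386 over 4 fish and 0.24 without fish 11. FEZ2, a relative of the axonal transport adaptor FEZ1, had 15.7, 20.4, 35.3 and 35.3 RPM in wild fish, against 29.1, 35.8, 34.1 and 32.4 RPM in captive fish. Fish 7 and 11 were equal and at the captive level, and fish 3 and 5 were lower. The dynein light intermediate chain DYNC1LI2 had 15.9, 34.5, 30.9 and 32.4 RPM in wild fish, against 43.7, 40.99, 42.6 and 39.9 RPM in captive fish. Fish 3 was the low one (log2 fold change -0.58 ± 0.20, edgeR adjusted p = 0.038), and the call was lost without wild fish 7 and without each captive fish in turn. The SD/mean of 0.298 among the wild fish was 0.0558 once fish 3 was left out. The unconventional myosin MYO18A had 155, 245, 136 and 136 RPM in wild fish, against 132, 150.3, 127.4 and 155 RPM in captive fish, with fish 5 high and the other 3 at the captive level. Its wild SD/mean was 0.311, and 0.0789 without fish 5. TPX2, a spindle assembly factor of dividing cells, had 31.9, 17.5, 19.3 and 15.1 RPM in wild fish, against 15.2, 17.2, 18.2 and 15.4 RPM in captive fish, with fish 3 high. Without fish 3 its wild SD/mean of 0.358 became 0.12. CFAP57, a protein of motile cilia, had 30.5, 15.2, 35.6 and 26.2 RPM in wild fish, against 31.7, 38.7, 35.8 and 39.0 RPM in captive fish, with fish 5 low. Leaving out fish 5 took its wild SD/mean to 0.154, against 0.323 over all 4. The gene named MYO5A after human, whose killifish symbol is ARPP19, has a model of only 303 bases, so its identity and its place among the motors are uncertain. It had 22.9, 9.68, 23.0 and 22.6 RPM in wild fish, against 18.03, 19.4, 20.7 and 18.7 RPM in captive fish, and the 3 fish other than fish 5 were nearly equal. The wild SD/mean of MYO5A was 0.337 over 4 fish and 0.00961 without fish 5.

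Genome maintenance and chromatin were covered by 7 genes, of which 1 was higher, 1 was lower and 5 did not pass. SIMC1, a protein that binds the modifier SUMO, had 55.9, 121, 48.7 and 51.6 RPM in wild fish, against 18.7, 16.7, 20.7 and 19.2 RPM in captive fish. All wild values were above the captive ones and fish 5 was far above the rest (log2 fold change 1.85 ± 0.28, edgeR adjusted p = 0.00055). The SD/mean of 0.498 among the wild fish was 0.0695 once fish 5 was left out. TONSL, which helps to repair stalled replication forks, had 11.3, 19.7, 8.80 and 7.85 RPM in wild fish, against 7.96, 8.17, 8.92 and 9.66 RPM in captive fish, with fish 5 high again. Its wild SD/mean was 0.453, and 0.19 without fish 5. UVSSA, a factor of transcription-coupled repair, had 70.3, 87.9, 36.0 and 43.5 RPM in wild fish, against 75.5, 64.4, 76.8 and 70.3 RPM in captive fish. Fish 3 lay at the captive level, fish 5 above it and fish 7 and 11 below it. REV3L, the catalytic subunit of DNA polymerase zeta, had 21.8, 12.2, 20.3 and 10.97 RPM in wild fish, against 10.6, 11.7, 10.9 and 9.45 RPM in captive fish. Fish 3 and 7 were high and the other 2 lay near the captive level.

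The histone acetyltransferase KAT2B had 40.4, 95.1, 90.2 and 56.6 RPM in wild fish, against 76.1, 80.4, 78.0 and 81.8 RPM in captive fish. Fish 5 and 7 were above the captive values and fish 3 and 11 below them, so the group means differed little. The histone variant gene H2AFY, which encodes macroH2A, had 28.3, 37.7, 35.7 and 62.8 RPM in wild fish, against 32.6, 35.7, 32.8 and 32.9 RPM in captive fish, with fish 11 high. Without fish 11 its wild SD/mean of 0.365 became 0.146. MNT, a repressor that pairs with MAX and opposes MYC, had 18.2, 19.3, 22.1 and 32.8 RPM in wild fish, against 30.2, 35.4, 36.7 and 34.5 RPM in captive fish. Fish 11 lay at the captive level and the other 3 below it (log2 fold change -0.59 ± 0.17, edgeR adjusted p = 0.02), and the call was lost without wild fish 5 (edgeR adjusted p = 0.054). Leaving out fish 11 took its wild SD/mean to 0.103, against 0.289 over all 4.

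The 3 RNA genes passed the test, of which AGO4 and DHX15 were named only through the table picked partly on these libraries. AGO4, an Argonaute protein that binds small RNAs, had 36.8, 23.5, 54.3 and 50.3 RPM in wild fish, against 105, 120.0, 109.7 and 117 RPM in captive fish. Fish 5 was lowest and all wild values were below the captive ones (log2 fold change -1.48 ± 0.21, edgeR adjusted p = 0.00046). The wild SD/mean of AGO4 was 0.339 over 4 fish and 0.195 without fish 5. ZC3H12C, a zinc finger protein of the Regnase family of endoribonucleases, had 3.30, 3.20, 4.13 and 6.73 RPM in wild fish, against 21.9, 25.7, 26.4 and 25.7 RPM in captive fish. Its wild values were the lowest relative to captive fish among the named genes (log2 fold change -2.55 ± 0.22, edgeR adjusted p = 1.4e-05), and at 45 to 97 reads per wild library the range of fish 11, 5.46 to 8.22 RPM (exact 95% Poisson interval), lay above that of fish 5, 2.33 to 4.28 RPM. The SD/mean of 0.38 among the wild fish was 0.143 once fish 11 was left out. The splicing helicase DHX15, which helps to take apart the used spliceosome, had 87.2, 41.1, 83.1 and 87.0 RPM in wild fish, against 43.9, 44.7, 40.9 and 44.7 RPM in captive fish. Fish 5 lay at the captive level and the other 3 at nearly the same higher level (log2 fold change 0.75 ± 0.21, edgeR adjusted p = 0.016). Its wild SD/mean was 0.3, and 0.0266 without fish 5.

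The 3 genes of membrane transport and excitability were all lower in wild fish. Of them, SLC25A14 and SLC4A11 met the threshold of 10 RPM only through captive fish. SLC25A14, a carrier of the inner mitochondrial membrane, had 2.59, 13.9, 8.60 and 4.10 RPM in wild fish, against 30.0, 27.9, 30.9 and 28.6 RPM in captive fish. Fish 5 and 7 were above fish 3 and 11, the reverse of RMDN1 and POF1B, and all were below the captive fish (log2 fold change -2.03 ± 0.39, edgeR adjusted p = 0.0025). With 36 reads in fish 3 and 196 in fish 5, the exact 95% Poisson intervals were 1.81 to 3.58 RPM and 12.1 to 16.0 RPM. These fish are also extremes of the wild values that chose the gene, so the intervals describe counting error only. SLC4A11, a membrane transporter of the SLC4 family, had 5.17, 3.27, 4.54 and 8.47 RPM in wild fish, against 26.7, 27.7, 28.1 and 30.3 RPM in captive fish. Fish 11 was highest in a set that lay far below the captive values (log2 fold change -2.42 ± 0.23, edgeR adjusted p = 3.1e-05). Without fish 11 its wild SD/mean of 0.413 became 0.223. DPP10, an auxiliary subunit of Kv4 potassium channels, had 6.75, 10.5, 9.83 and 14.02 RPM in wild fish, against 17.2, 18.8, 15.4 and 16.7 RPM in captive fish, with fish 3 lowest and fish 11 nearest to captive fish (log2 fold change -0.76 ± 0.19, edgeR adjusted p = 0.011).

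Metabolism, the lysosome and protein turnover were represented by 9 genes, of which 1 was higher, 4 were lower and 4 did not pass. BTD, the enzyme biotinidase that recycles biotin, had 6.68, 11.9, 17.3 and 5.76 RPM in wild fish, against 12.5, 13.6, 10.7 and 11.9 RPM in captive fish. Fish 7 was above the captive values and fish 3 and 11 were below them. GAA, the acid glucosidase that breaks down glycogen in lysosomes, had 55.0, 30.0, 33.4 and 53.8 RPM in wild fish, against 46.0, 50.1, 43.9 and 51.3 RPM in captive fish. Fish 3 and 11 were high and fish 5 and 7 low, as in RMDN1. The ceramide synthase CERS4 had 14.3, 11.2, 7.15 and 17.8 RPM in wild fish, against 27.7, 24.9, 26.9 and 30.8 RPM in captive fish, with fish 7 lowest and all wild values below the captive ones (log2 fold change -1.16 ± 0.22, edgeR adjusted p = 0.0026). Leaving out fish 7 took its wild SD/mean to 0.231, against 0.361 over all 4. HPRT1, the purine salvage enzyme often taken as a reference gene in RT-qPCR, had 12.2, 12.9, 20.0 and 22.5 RPM in wild fish, against 24.5, 26.98, 25.2 and 27.9 RPM in captive fish. All wild values were below the captive ones, and fish 7 and 11 came nearest (log2 fold change -0.66 ± 0.19, edgeR adjusted p = 0.019).

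DPY19L3, an enzyme that attaches mannose to tryptophan in proteins, had 13.6, 17.6, 9.01 and 24.4 RPM in wild fish, against 52.2, 52.2, 50.6 and 49.2 RPM in captive fish. Fish 11 was highest and fish 7 lowest, all below the captive fish (log2 fold change -1.69 ± 0.23, edgeR adjusted p = 0.00035). PNKD, named after a human movement disorder, had 9.62, 9.75, 18.8 and 11.7 RPM in wild fish, against 27.3, 25.6, 25.1 and 29.7 RPM in captive fish, with fish 7 nearest to the captive level (log2 fold change -1.14 ± 0.20, edgeR adjusted p = 0.0015). The wild SD/mean of PNKD was 0.347 over 4 fish and 0.111 without fish 7. The deubiquitinase USP2 had 69.7, 83.2, 66.7 and 125.7 RPM in wild fish, against 110.0, 107, 106 and 108 RPM in captive fish, with fish 11 above and the other 3 below the captive values. The SD/mean of 0.315 among the wild fish was 0.12 once fish 11 was left out. The peptidylarginine deiminase gene PADI4, whose killifish symbol is PADI2, had 22.9, 24.97, 11.6 and 23.2 RPM in wild fish, against 29.8, 27.6, 26.7 and 23.3 RPM in captive fish. Fish 7 was low, and the other 3 lay between 22.9 and 24.97 RPM. Its wild SD/mean was 0.297, and 0.0472 without fish 7.

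The 59 genes without a name included the 4 highest SD/mean values of all. Nfu_g_1_012707 had 12.4, 13.3, 14.5 and 53.0 RPM in wild fish, against 12.4, 11.99, 11.6 and 11.6 RPM in captive fish. Only fish 11 departed from a level that the 7 other brains shared. Nfu_g_1_021902 had 236, 57.8, 62.6 and 73.7 RPM in wild fish, against 55.2, 52.6, 55.3 and 46.3 RPM in captive fish, with fish 3 standing out. Nfu_g_1_021982 had 279, 950.3, 275 and 303 RPM in wild fish, against 224, 229, 239 and 250.0 RPM in captive fish, with fish 5 standing out. Nfu_g_1_016549 was low in all wild fish. It had 1.08, 5.41, 1.99 and 1.597 RPM, against 16.8, 19.5, 18.7 and 20.0 RPM in captive fish (log2 fold change -2.92 ± 0.38, edgeR adjusted p = 0.00023), and fish 5 with 76 reads was above the 15 to 29 reads of the other 3. Of the 59 genes, 6 passed the test with a higher and 7 with a lower mean in wild fish, and 46 did not pass. The remaining 4 examples were picked after their values were seen. Nfu_g_1_018062 had 5.24, 8.75, 5.09 and 5.07 RPM in wild fish, against 67.0, 57.6, 65.7 and 65.1 RPM in captive fish. Its difference in mean was the largest among the 100 genes (log2 fold change -3.43 ± 0.16, edgeR adjusted p = 4.6e-07). It met the threshold of 10 RPM only through captive fish, so nothing is read from this rank. Nfu_g_1_020352 had 107, 253, 119 and 113 RPM in wild fish, against 79.6, 91.1, 87.9 and 95.6 RPM in captive fish, with fish 5 more than 2 times the others. Nfu_g_1_006574 was low in fish 5 alone, with 97.8, 46.2, 95.8 and 97.5 RPM in wild fish, against 109.9, 104, 116 and 109 RPM in captive fish. Nfu_g_1_005341 was low in fish 3 alone, with 10.1, 23.0, 22.9 and 23.7 RPM in wild fish, against 19.8, 24.2, 23.1 and 20.4 RPM in captive fish.

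Further genes of the same human name show whether a copy shared the pattern. Such genes were found for 17 of the 41 named genes, 19 in all, and the deposited tables kept at most 1 alignment per read, so reads of near-identical copies could be placed on either. Of the 19, 8 had the same highest wild fish and 7 the same order of the 4 wild fish as the chosen gene, while 6 had a wild SD/mean under 0.1. The 7 of the same order included the SLC25A14 and INPP5J copies, with a wild SD/mean of only 0.0436 and 0.0403, and a MYO18A copy (Nfu_g_1_004986) at 0.275 to 1.85 RPM in wild fish. The other IRS2 gene (Nfu_g_1_008662) had 5.46, 7.75, 9.08 and 16.7 RPM in wild fish and 51.1, 68.8, 75.2 and 57.5 RPM in captive fish. Fish 3 was lowest and fish 11 highest in both genes, but the captive level of the second gene was far above its wild level. The other MNT gene (Nfu_g_1_000276) had 39.1, 42.0, 66.5 and 83.5 RPM in wild fish and 41.7, 41.6, 55.1 and 38.5 RPM in captive fish, in the same order of wild fish. The other GAA gene (Nfu_g_1_019523) had 35.9, 24.8, 27.6 and 41.2 RPM in wild fish and 22.1, 19.3, 21.3 and 19.7 RPM in captive fish, again with fish 3 and 11 above fish 5 and 7. Both ETV5 genes had fish 11 highest and fish 3 lowest, and the second (Nfu_g_1_014020) had 54.9, 68.6, 67.1 and 78.7 RPM in wild fish and 76.2, 65.3, 68.6 and 69.9 RPM in captive fish.

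Other copies varied little or ran the other way. The second DHX15 gene (Nfu_g_1_018297) had 104, 109.8, 111 and 111 RPM in wild fish and 105, 102, 114 and 114 RPM in captive fish, so only the chosen gene was low in fish 5. The second SLC25A14 gene (Nfu_g_1_004970) had 27.2, 30.1, 29.6 and 29.2 RPM in wild fish and 31.7, 28.3, 26.5 and 24.3 RPM in captive fish, with wild values near the captive ones. The second INPP5J gene (Nfu_g_1_008851) had 123, 123, 128 and 134 RPM in wild fish and 117, 124.6, 125.4 and 130.1 RPM in captive fish, without the excess of fish 11. A second CERS4 gene (Nfu_g_1_002399) had 126.15 to 147.0 RPM in wild fish and 104.0 to 112.2 RPM in captive fish. Its wild values were above the captive ones, the reverse of the chosen gene. Summed, both CERS4 genes had a wild SD/mean of 0.0435, and most of that sum came from the second gene. REV3L also had a second gene (Nfu_g_1_005525), with 68.7 to 81.0 RPM in wild fish and 106.0 to 139.5 RPM in captive fish. Both REV3L genes summed had a wild SD/mean of 0.0882, again mostly from the second gene. For PTPDC1 the second gene (Nfu_g_1_016474) was lowest in fish 7, the fish in which the first was highest, with 11.1, 7.04, 5.50 and 10.6 RPM in wild fish and 11.2, 8.92, 9.08 and 7.71 RPM in captive fish. Next to the short gene named MYO5A, another gene of that name (Nfu_g_1_013538) was high in fish 5, with 32.5, 42.3, 29.8 and 32.8 RPM in wild fish and 73.0, 69.8, 76.6 and 75.8 RPM in captive fish. Summed, this pair had 55.4, 52.0, 52.7 and 55.3 RPM in wild fish 3, 5, 7 and 11, an SD/mean of 0.0324. A further gene of that name (Nfu_g_1_013537) was also highest in fish 5, with 243, 294, 239 and 256 RPM in wild fish and 338, 362, 329.6 and 344 RPM in captive fish, and its sum with the short gene had an SD/mean of 0.0676. In RefSeq (NfurGRZ-RIMD1), arpp19a and myo5aa are neighbours on chromosome 9. A shift of reads between these models was not tested. Sums for names other than CERS4, REV3L and MYO5A had a higher wild SD/mean, from 0.117 (FEZ2) to 0.443 (IRS2).

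**Figure D5:**
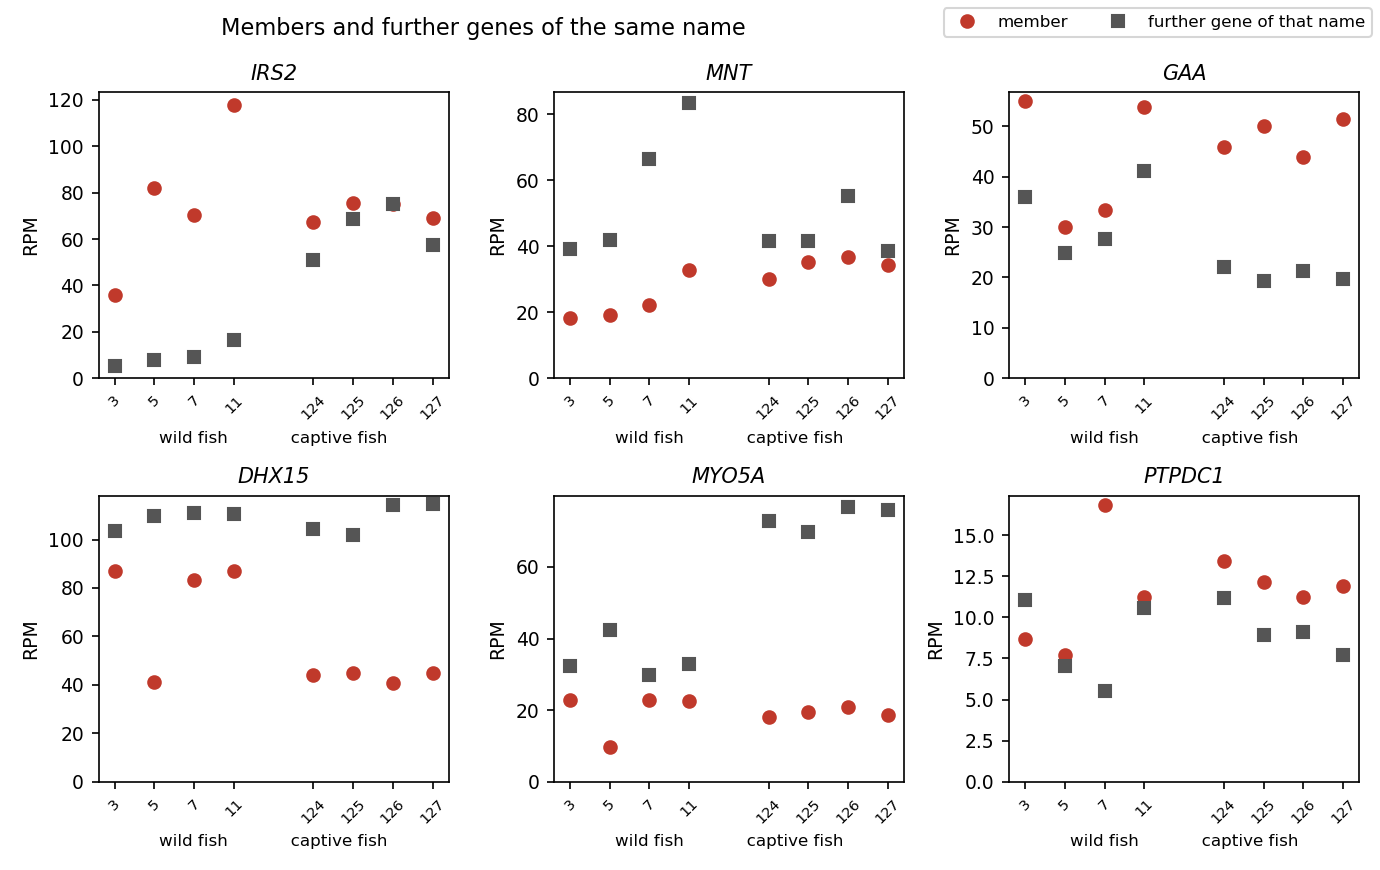
RPM (vertical, each axis from 0) in each wild and captive fish (horizontal) for 6 of the 100 genes (red circles) and a further gene of the same name (grey squares). Fish 11 is highest in both IRS2 and both MNT genes, the second DHX15 gene stays between 104 and 111 RPM in wild fish, and the MYO5A and PTPDC1 genes run opposite in fish 5 and fish 7.

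None of the 41 named genes was on any of 29 lists, 16 of pathways and 13 of cell types. The lists were matched by name, so the 59 genes without one could not be on them, and the rule itself left out list genes such as FOS and EGR1. No eligible gene was on the lists of lymphocytes, microglia and macrophages, pigment cells, radial glia and astrocytes, antigen presentation and xenobiotic response. None of the 100 could therefore be on these lists, and nothing is read from the absence of list genes. The remaining lists held genes that met both thresholds. Their median wild SD/mean lay below that of the other eligible genes in some lists and above it in others. That median was 0.0708 for the other eligible genes. The median wild SD/mean was 0.0547 in 12 genes of the unfolded protein and amino acid response, 0.0707 in 17 heat shock proteins and cochaperones, 0.080 in 26 glutamate and GABA receptors and 0.0887 in 17 clock genes. It was 0.151 in 11 genes of cell division and 0.105 in 8 genes of collagens and extracellular matrix. The highest of these medians, 0.204, was that of 8 immediate early genes, which neurons switch on within minutes of activity. These 8 include FOS, EGR1 and JUNB, which the rule left out and which the median of 0.0708 does not cover. Nothing is therefore read from its rank. FOS had 139, 101, 86.7 and 44.2 RPM in wild fish and 9.73, 12.1, 11.5 and 11.2 RPM in captive fish, and would have ranked 26 had it been kept. EGR1, at rank 49, had 295, 248, 184 and 119.8 RPM in wild fish and 54.7, 67.3, 58.9 and 64.3 RPM in captive fish. Both were highest in fish 3, then in fish 5, 7 and 11. Of the 100 genes, 2 had that order, against 4.43% of the other eligible genes, and 10 had the reverse order, against 6.32%. Those 10 include INPP5J, CARMIL2, HPRT1 and MNT. The order comes from the wild values that chose the genes, and the rule left out FOS and EGR1 themselves. Nothing is therefore read from these shares.

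Among the list genes nearest to the choice, the collagen gene COL12A1 at rank 116 had 62.1, 37.0, 34.5 and 50.9 RPM in wild fish and 65.0, 64.6, 57.6 and 55.2 RPM in captive fish. The T-type calcium channel gene CACNA1G at rank 158 had 11.3, 10.0, 8.11 and 14.9 RPM in wild fish and 50.7, 54.9, 59.9 and 60.1 RPM in captive fish, and the potassium channel gene KCNQ5 at rank 159 had 16.8, 17.1, 12.4 and 23.3 RPM in wild fish and 37.5, 38.4, 37.5 and 37.4 RPM in captive fish. Both channels were lowest in fish 7 and highest in fish 11, and below the captive level in all 4. BDNF, a growth factor released by active neurons, at rank 204 had 28.9, 44.3, 38.6 and 51.9 RPM in wild fish and 49.9, 48.3, 48.0 and 49.7 RPM in captive fish, with fish 3 lowest. The clock gene ARNTL at rank 257 had 31.2, 40.8, 43.2 and 53.9 RPM in wild fish and 78.0, 73.8, 78.4 and 76.7 RPM in captive fish, with the wild fish in the reverse order of FOS. Summed marker levels were set beside the 100 genes in the same way. The order of the fibroblast sum was shared by 3 genes and its reverse by 3, against 3.61% and 5.72% of the other eligible genes. The order of the pituitary and hypothalamic sum was shared by 2 and its reverse by 7, against 3.33% and 5.07%. That of the oligodendrocyte sum was shared by 3 and its reverse by 9, against 4.51% and 7.42%, and that of the radial glia and astrocyte sum (7022, 5276, 7086 and 5610 RPM in wild fish) by 5 and its reverse by 2, against 3.06% and 3.90%. For the sum of erythrocyte markers, which was 111 to 139 RPM in wild fish and 175 to 220 RPM in captive fish, 8 genes had the same order and 8 the reverse, against 2.63% and 4.91% of the other eligible genes. The 8 with the same order included RMDN1, POF1B, GAA and DHX15, and those with the reverse included SLC25A14, KAT2B and RIPK2. Of the 14 erythrocyte symbols, 5 were matched by name. All these orders come from the wild values that chose the genes, so nothing is read from the shares. The part of blood or of any other cell type in these values was not tested.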

How the data were processed

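Whole-brain RNA of 4 wild and 4 captive males was sequenced. Per the labels and the study's methods, the authors used bcl2fastq 2.20.0.422 for read conversion, TopHat2 2.1.0 for mapping to the hard-masked genome Nfu_20150522 (at most 1 alignment per read) and featureCounts 1.6.5 for counting per gene (reverse-stranded). The deposited count table holds raw reads per gene, the deposited RPM table divides them by each library's total, and the deposited RPKM table divides RPM by transcript length. RPM equalled CPM computed from the counts to within 5e-12. The members and gene lists were chosen with earlier results of these data known.

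SD/mean (n - 1 in the SD) came from RPM. Counts were tested with edgeR 4.0.16 (quasi-likelihood F-test, TMM, genes with at least 1 count in each library, condition as the only term, Benjamini-Hochberg over all genes), in R 4.3.3 with limma 3.58.1 and DESeq2 1.42.0. Both the rule and the test were tested on simulated data. Total counts of 11814586 to 14541119 per library set the precision, and Poisson intervals cover counting error only. The study reported closer average kinship in its captive samples. Whether the fish of a group shared a clutch is not given in the sources used here, so p-values rest on the spread between these fish. That spread is 1 estimate per gene for both groups, although the members were chosen for unequal spread. With weights set per group and shared by all genes (limma), 31 members passed, 7 higher and 24 lower in wild fish. Such weights do not model the unequal spread of single genes. Named in the text by rule were the 20 named members of highest wild SD/mean, the 5 largest and 5 smallest called fold changes, the genes at the thresholds, the 3 unnamed members of highest SD/mean and the 3 named members of highest level. The other named members were added after their values were seen. Alternatives varied the thresholds, the measure of spread, the scaling, the filter, the test tool and the fish included. Gene names came from the study's tables, and RefSeq (NfurGRZ-RIMD1) was used only for gene neighbours. Sequences were not used here. A named member that is counted in the text is not reported here.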

Additional observations from a re-analysis of the deposited data

Results flagged for a closer look

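In the following genes 1 fish of a group of 4 lay far from the other 3, with a gap to the next fish above Dixon's 95% critical value for 4 samples. Chance flags about 1 in 20 groups (5%), and the members were chosen for spread among wild fish, so such gaps are a description. Values are RPM.

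Among wild fish, the lone fish was high in 9 of the genes described. Nfu_g_1_012707 had 53.0 RPM in fish 11 and 12.4 to 14.5 RPM in the others, Nfu_g_1_021902 had 236 RPM in fish 3 and 57.8 to 73.7 RPM in the others, and Nfu_g_1_021982 had 950.3 RPM in fish 5 and 275 to 303 RPM in the others. INPP5J had 271 RPM in fish 11 (others 106 to 118 RPM), and BAIAP2 had 48.9 RPM in fish 11 (others 24.1 to 27.04 RPM). In fish 5, SIMC1 had 121 RPM (others 48.7 to 55.9 RPM), PDE3B had 43.6 RPM (others 24.7 to 27.2 RPM) and Nfu_g_1_020352 had 253 RPM (others 107 to 119 RPM). Nfu_g_1_018062 had 8.75 RPM in fish 5 and 5.07 to 5.24 RPM in the others, a small difference at a low level.

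The lone wild fish was low in 5 genes. MYO5A had 9.68 RPM in fish 5 (others 22.6 to 23.0 RPM), DHX15 had 41.1 RPM in fish 5 (others 83.1 to 87.2 RPM) and Nfu_g_1_006574 had 46.2 RPM in fish 5 (others 95.8 to 97.8 RPM). PADI4 had 11.6 RPM in fish 7 (others 22.9 to 24.97 RPM), and Nfu_g_1_005341 had 10.1 RPM in fish 3 (others 22.9 to 23.7 RPM). Among captive fish the gaps were narrow, since the rule required a captive SD/mean of at most 0.1. BAIAP2 had 63.2 RPM in fish MZM_0410_126 (others 67.4 to 68.0 RPM), ZC3H12C had 21.9 RPM in fish MZM_0410_124 (others 25.7 to 26.4 RPM) and H2AFY had 35.7 RPM in fish MZM_0410_125 (others 32.6 to 32.9 RPM).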

How the results depend on the processing

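Of the 100 members, 66 were chosen again with a mean of at least 5 RPM, 62 with at least 20 RPM, 62 with a captive SD/mean of at most 0.08 and 68 with at most 0.12. Other settings kept 76 (n in the SD), 95 (TMM), 86 (SD of log2 values) and 98 (counting variance subtracted), and leaving out 1 fish kept 60 to 78, with 60 without captive fish MZM_0410_124. The members that passed the test in mean level, 33, were 31 to 38 under other tools, scalings and filters and 27 to 41 without 1 fish. Those higher in wild fish, 10, were 5 to 16 without 1 fish (16 without wild fish 5) and 7 to 15 elsewhere. Of 300 fold changes of the 20 called named members under 15 alternatives, none changed sign and 6 lost the call, 5 of DYNC1LI2 and 1 of MNT. No list gene was a member as reported, and 0 to 5 were under the alternatives. No paired analysis was made, because the wild and captive fish are separate animals of different populations. With 4 fish a group, SD/mean is imprecise and often rests on 1 fish. Depth limits members of few reads, such as Nfu_g_1_016549 with 15 to 76 reads per wild fish.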

Other observations

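By symbol, 31 of the 41 named members matched 1 protein-coding gene of RefSeq (NfurGRZ-RIMD1), and 2 pairs of them lay at most 10 places apart in gene order. TPX2 and STK35 had 4 genes between them and differed in the wild fish that stood out, fish 3 for TPX2 (31.9 RPM) and fish 11 for STK35 (23.3 RPM). SLC25A14 and POF1B also had 4 genes between them, and their wild values ran opposite to each other. SLC25A14 was low in fish 3 and 11 (2.59 and 4.10 RPM) and higher in fish 5 and 7 (13.9 and 8.60 RPM), while POF1B was high in fish 3 and 11 (20.4 and 16.1 RPM) and lower in fish 5 and 7 (8.40 and 9.15 RPM). A further killifish gene carries the name SLC25A14, so which of both lies next to POF1B is unsure.

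Where 2 wild fish lay on each side of the widest gap, fish 3 and 11 were most often set against fish 5 and 7. Fish 3 and 11 were high in 7 members and fish 5 and 7 in 8, against 3.04% and 5.84% of the other eligible genes. The other groupings were fish 3 and 5 high in 5 members, fish 7 and 11 in 3, fish 5 and 11 in 2 and fish 3 and 7 in 1. These groupings come from the wild values that chose the members, so nothing is read from the shares. Summed markers of fibroblasts, meninges and pericytes were higher in fish 3 and 11 (675 and 1291 RPM) than in fish 5 and 7 (243 and 213 RPM). So were collagens and extracellular matrix genes (1433 and 1979 RPM against 927 and 933 RPM). Both COL1A2 genes are on both lists and carried this split, so the sums are not separate observations. The COL1A2 genes had 213 and 282 RPM in fish 3 and 476 and 662 RPM in fish 11. In fish 5 they had 35.9 and 41.3 RPM, and in fish 7 24.1 and 49.0 RPM. Other genes of the fibroblast list did not share the split. PDGFRA had 40.5, 34.1, 33.1 and 29.3 RPM in fish 3, 5, 7 and 11. The part of these genes in the grouping was not tested.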
